A study of Mus musculus with 8 samples.

Results

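The Pi15/Nes state is a set of epithelial cells of the mouse tongue that held messages of at least 3 of 7 genes seldom seen in this tissue: Pi15, Nat8l, Nes, Il24, Lgi2, Crabp2 and Tdrd1. The rule was applied to cells with 1000 to 5500 detected genes, at most 30000 molecules counted by unique molecular identifiers (UMIs), at most 7% mitochondrial UMIs, no UMI of the leukocyte gene Ptprc, and at least 0.5% of UMIs from Krt5, Krt14, Krt15, Krt13 and Krt6a. Such cells are called gated cells. A gated cell belonged to the state if it also had fewer than 3 of 7 late squamous genes (Sprr2f, Sprr2d, Sprr2h, Lce3c, Cnfn, Klk12 and S100a7a). There were 651 state cells among 12957 gated cells (5.02%), out of 25199 cells that passed the filters and 42550 barcodes. One library, EY2, supplied 578 of them (88.8%), so most of what follows describes the epithelium of a single EY mouse.

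The study asked how oral epithelial cells change when oncogenic transgenes are switched on. All mice carried Krt14-CreERT, which is active in basal keratinocytes, and LSL-rtTA, and by the study's methods also a histone H2B-GFP reporter under the same doxycycline control. Control mice (N, Krt14-CreERT/LSL-rtTA) carried no effector, E mice added tetON_E6-E7 of human papillomavirus, Y mice added tetON_YAP1S127A (YAP1 kept active by loss of an inhibitory site), and EY mice carried both. Littermates aged 8 to 16 weeks received 3 doses of tamoxifen into the tongue with doxycycline in the diet, viable cells were sorted on day 15, and 2 droplet libraries per group gave 8 in all. One N library (N2) has a title with more than 1 animal number and may pool animals.

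The state takes its name from genes with little in common in textbook terms. Nes encodes nestin, an intermediate filament protein of neural progenitors. Crabp2 encodes a cytoplasmic carrier of retinoic acid, Il24 a cytokine of the IL-20 group, Pi15 a secreted protein of the CAP superfamily, Lgi2 a secreted leucine-rich repeat protein, Nat8l the enzyme that makes N-acetylaspartate, and Tdrd1 a tudor protein of the germline piRNA pathway. E6 and E7 inactivate p53 and the retinoblastoma protein, whose loss frees E2F factors, while YAP1 acts on genes through TEAD factors and commonly with AP-1.

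The 7 genes lie on 4 chromosomes of GRCm38. Pi15 is at chr1:17601901-17630939 and Il24 at chr1:130882074-130887454. Nat8l is at chr5:33995984-34005916 and Lgi2 at chr5:52533517-52566462. Tdrd1 is at chr19:56826209-56870012. Crabp2 (chr3:87948666-87953376) and Nes (chr3:87971078-87980451) are neighbours, 17701 bases apart with 0 annotated genes of the files between them. Promoter windows of 250 bases before a RefSeq start (GRCm38.p6) were held for 3 of the 7 genes, Nes, Lgi2 and Tdrd1, in 5 windows. Nes and Tdrd1, the pair that was higher in every library with E6-E7, are shown up to the first annotated base of the gene, each on the plus strand, with capitals for the letters GCGGGA, an E2F motif searched after the data were seen.
Nes, chr3:87970843-87971077: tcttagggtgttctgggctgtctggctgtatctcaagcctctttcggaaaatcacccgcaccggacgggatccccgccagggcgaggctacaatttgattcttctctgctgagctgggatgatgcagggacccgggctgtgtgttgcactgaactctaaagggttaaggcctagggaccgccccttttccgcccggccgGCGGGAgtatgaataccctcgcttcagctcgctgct
Tdrd1, chr19:56825959-56826208: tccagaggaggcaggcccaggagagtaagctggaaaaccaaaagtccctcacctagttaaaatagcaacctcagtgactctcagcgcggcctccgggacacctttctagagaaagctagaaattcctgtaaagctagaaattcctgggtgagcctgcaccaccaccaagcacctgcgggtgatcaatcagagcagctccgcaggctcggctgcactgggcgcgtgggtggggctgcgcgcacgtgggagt
GCGGGA or its reverse complement TCCCGC occurred in 1 of the 3 genes, once in the Nes window, with 45 bases between it and the RefSeq start. Over all windows of this length it occurred in 16.9%, and in 18.8% of the 27025 genes with a window. The TEAD letters GGAATG or CATTCC occurred in 0 of the 3 genes and in 14.4% of all genes. The AP-1 letters TGACTCA or TGAGTCA also occurred in 0 of the 3, and in 5.16% of all genes. None of the 3 motifs overlaps another in these windows.

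The matrices held 46483469 to 102427359 UMIs per library. Gated cells ranged from 170 in EY1 to 4055 in E1, and the median gated cell held 12575 (E1) to 23570 (E2) UMIs. Library pairs shared 2 to 19 of their barcodes, and 0 state barcodes were state barcodes in another library, while 10 state barcodes of EY2 occurred among any barcodes of the others (13 in EY2 and 1 in EY1 without upper limits). Yap1, which reports the YAP1 transgene together with the endogenous gene, stood at 32.8 to 47.8 CPM (a gene's UMIs scaled to a fixed total per library or cell group) in gated cells of the N and E libraries and at 166 to 452 in those of Y and EY. The EY replicates differ in how much of their epithelium the limits on genes and UMIs remove: 64.7% of the keratin-positive cells of EY1 lay above them, against 17.7% of those of EY2.

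State cells made up 28.5% of the gated cells of EY2 (578 of 2027, exact Clopper-Pearson 95% interval 26.6 to 30.5%) and 2.35% of those of EY1 (4 of 170, 0.645 to 5.91%). In E the share was 1.26% in E1 (51 of 4055) and 0.542% in E2 (3 of 553). In Y it was 0.698% in Y1 (9 of 1289) and 0.0999% in Y2 (1 of 1001). In N it was 0.145% in N1 (5 of 3447), and N2 had 0 of 415 cells, with an exact 95% upper bound of 0.885%. Both EY shares lay above all 6 others, but the EY mean of 15.4% carried an SD of 18.5 (n = 2). The N mean was 0.0725% ± 0.103, the E mean 0.9001% ± 0.506 and the Y mean 0.399% ± 0.423 (SD, n = 2 each). The state was picked for its share in EY, so no test was made, and intervals cover counting error only.

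**Figure D1:**
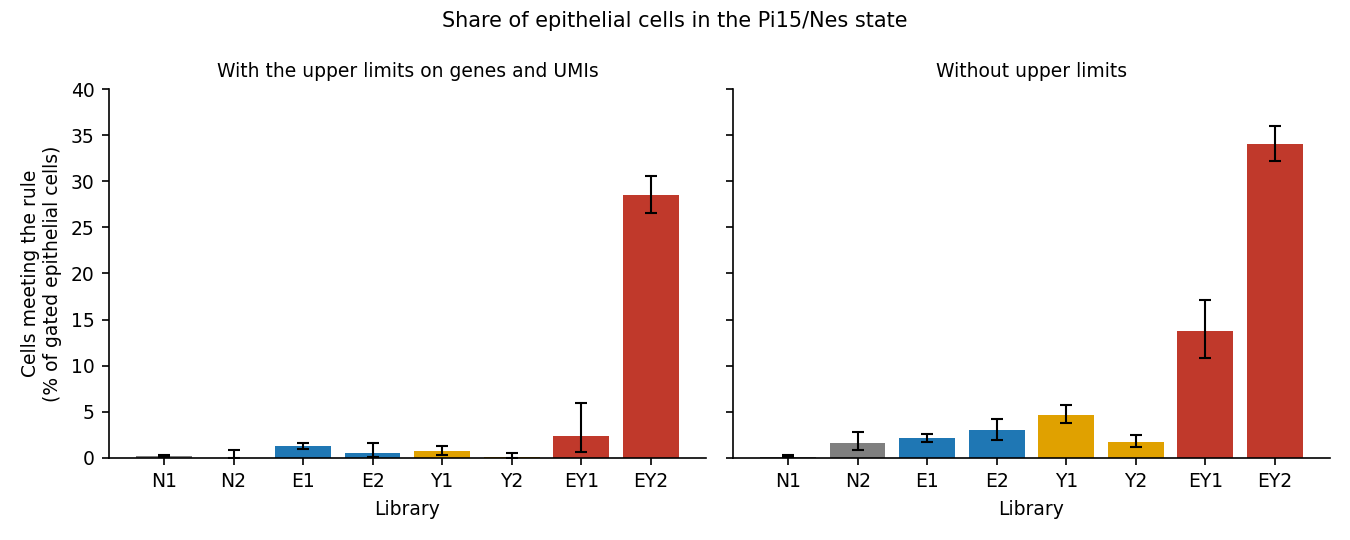
Percent of gated epithelial cells that met the rule in each of the 8 libraries, with 95% Clopper-Pearson intervals, under the limits on genes and UMIs (left) and without them (right). EY2 stands at 28.5% and 34.0%, and EY1 moves from 2.35% to 13.7%.

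Without the upper limits on genes and UMIs, 1152 of 15819 gated cells met the rule. The share was 34.0% in EY2 (838 of 2462) and 13.7% in EY1 (66 of 481). The E shares became 2.10% and 2.97%, the Y shares 4.64% and 1.70%, and the N shares 0.142% and 1.62%. The order of the EY libraries above the rest held with and without the limits. No doublet caller was run, and the part of doublets in these shares was not tested. The 12 cells of N2 that met the rule, all above the limits, went against their label in part: Yap1 stood at 136 CPM in them and was seen in 9 of the 12, against 35.6 CPM in N2 cells with fewer than 2 of the 7 genes. Zcwpw1, otherwise high only where E6-E7 was present, stood at 29.3 CPM in these 12 cells and was seen in 6 of them, against 2.11 CPM in the other N2 cells, and 0 of the 12 barcodes occurred in another library.

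Deeper cells met the rule more often. Among EY2 gated cells split into tertiles of UMIs, the state share was 8.28% in the lowest (56 of 676), 27.1% in the middle (183 of 676) and 50.2% in the highest (339 of 675). The median state cell of EY2 held 22776 UMIs and the median other gated cell 16334. After each cell was thinned to 4000 UMIs, 2.86% of EY2 cells met the rule (57 of 1996), with 31 shallower cells left out. The thinned count was 2 of 4014 in E1 and 0 in each of the other 6 libraries, among them 0 of 135 in EY1, which allows up to 2.22%. Thinned without the upper limits, EY2 had 92 of 2431 cells (3.78%), EY1 2 of 446 (0.448%), N2 3 of 716 (0.419%), Y1 3 of 1867, Y2 1 of 1572, E2 1 of 920 and both E1 and N1 0. At equal depth and without the limits, the interval of EY2 (3.06 to 4.62%) lay above those of the 7 other libraries, while that of EY1 (0.0544 to 1.61%) overlapped that of N2 (0.0865 to 1.22%).

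Free RNA was gauged in immune cells. Of 10739 cells with a Ptprc UMI and under the keratin minimum, 0 held 3 of the 7 genes. Taking 3 cells as the upper limit, this allows up to 0.0279% over all libraries. In EY2, the source of most state cells, 0 of 757 immune cells did, which allows up to 0.396%. The library medians of immune cells, 3372.5 to 10871.0 UMIs, were below those of gated cells. In EY2 each of the 7 genes was seen in 0.396 to 3.04% of these immune cells (median 4841.0 UMIs) and in 13.4 to 42.2% of gated cells (median 18451.0).

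The cut at 3 genes divides a continuous distribution. In EY2 the gated cells with 0 to 7 of the genes numbered 482, 482, 378, 290, 226, 123, 39 and 7. Just inside the threshold stood 241 state cells with 3 genes, at a median of 20414 UMIs and 5 UMIs summed over the 7 genes. Just outside stood 308 cells with 2 genes and few squamous genes, at 18661 and 3 UMIs. The squamous limit removed 107 cells with 3 or more of the genes in EY2, where 685 cells had them before it.

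Among state cells of EY2, Lgi2 was detected in 79.2%, Crabp2 in 71.5%, Nes in 65.2%, Pi15 in 51.6%, Tdrd1 in 44.6%, Il24 in 42.4% and Nat8l in 36.7%. The commonest pair was Lgi2 with Crabp2, in 323 of 578 cells (55.9%), and the rarest Nat8l with Il24, in 84 (14.5%). The neighbours Nes and Crabp2 occurred together in 265 cells (45.8%). Among the 51 state cells of E1, Lgi2 was detected in 80.4%, Nes in 60.8%, Crabp2 in 58.8%, Nat8l in 43.1%, Tdrd1 in 39.2%, Il24 in 17.6% and Pi15 in 11.8%. These shares are fixed in part by the rule and are descriptions.

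Over all gated cells, which the rule did not split, the 7 genes showed distinct patterns across genotypes. Nes stood at 0.120 and 0.229 CPM in N, 0.0831 and 0.407 in Y, 6.84 and 2.48 in E, and 9.78 and 30.7 in EY. Tdrd1 stood at 0.321 and 0 in N, 0.125 and 0 in Y, 3.28 and 3.80 in E, and 6.93 and 18.6 in EY. For these 2 genes the 4 libraries with E6-E7 lay above the 4 without, a pattern shared by 2.39% of the 15411 genes with enough UMIs. Tdrd1 belongs to a pathway normally confined to germ cells, and meiotic genes such as Zcwpw1 and Stag3 showed the same split, as described below.

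Il24 followed a pattern of its own. It stood at 42.8 CPM in EY1 and 53.8 in EY2, against 0.140 and 1.03 in N, 1.81 and 0.248 in E, and 2.78 and 0.712 in Y. The EY libraries were nearer to each other here than in their state shares of 2.35% and 28.5%. Without the upper limits Il24 reached 30.4 CPM in Y1 and 78.1 in EY1, while N and E stayed at 0.133 to 6.39. Its share of cells with a UMI after thinning was 13.3% in EY1 and 9.17% in EY2, and at most 0.477% elsewhere.

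Crabp2 stood at 19.1 CPM in EY1 and 50.3 in EY2, and at 4.07 to 13.0 in the other 6 libraries. Nat8l stood at 2.04 and 10.6 CPM in EY and at 0.305 to 1.61 elsewhere. Together with Nes, Tdrd1 and Il24, these made 5 of the 7 genes with both EY libraries above all others, against 12.1% of all genes. Lgi2 and Pi15 did not: Lgi2 stood at 8.55 CPM in EY1, inside the range of 1.94 to 10.6 of N, E and Y, and at 45.5 in EY2. Pi15 stood at 1.22 CPM in EY1, inside the range of 0.0826 to 1.54 elsewhere, and at 20.6 in EY2. These patterns depended on the limits, which removed most keratin-positive cells of EY1. Without them Lgi2 stood at 18.7 CPM in EY1 and at most at 13.6 in N, E and Y, and Pi15 at 5.40 in EY1 and at most at 5.15, so that both EY libraries lay above the others. Crabp2 then stood at 17.2 CPM in EY1, below Y1 (42.1) and Y2 (19.2), and lost that pattern. Under the limits EY2 was the highest library for each of the 7, as it was for 21% of all genes. The genes were chosen for this contrast, so their order is a description.

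**Figure D2:**
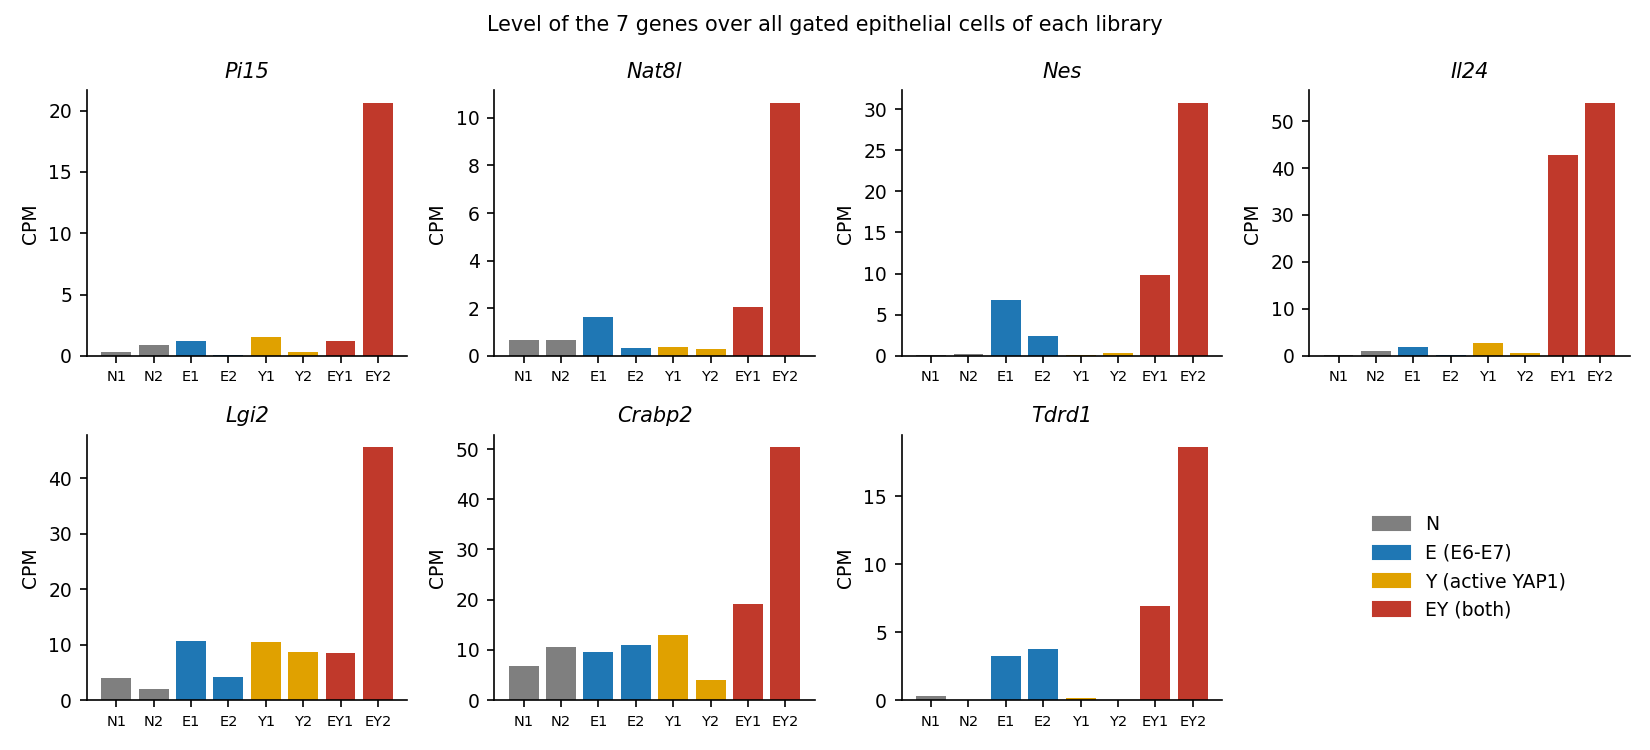
Level of each of the 7 genes in CPM over all gated cells, 1 bar per library coloured by genotype. Nes and Tdrd1 are raised in all 4 libraries with E6-E7, Il24 in both EY libraries, and Pi15 and Lgi2 stand in EY1 within the range of N, E and Y under these limits.

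The genes around the state genes were read for the same patterns. Of 12 other genes within 250 kb of Nes and Crabp2 with at least 20 UMIs, 0 had both EY libraries above all others. Around Il24 there were 9 such genes and 3 had that pattern. Over all 15411 genes with enough UMIs 12.1% had it, so these short counts show little about either region. Il19, another IL-20 group cytokine 45202 bases from Il24, stood at 5.30 and 8.43 CPM in EY and at 0 to 0.725 elsewhere. Fcmr, an immunoglobulin M receptor gene 1283 bases from Il24, stood at 4.48 and 16.5 CPM in EY and at 0.763 to 1.52 elsewhere. Mapkapk2, a kinase gene and the last of the 3, stood at 52.96 and 57.9 CPM against 33.1 to 44.7.

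State cells were next set beside the other gated cells of the same library. Because the rule itself divided them, these ratios are descriptions without a test. In EY2, 10 of 5133 genes were at least 2-fold higher in state cells (0.195%) and 74 were at least 2-fold lower (1.44%), among genes with 20 CPM on either side. The state was therefore set off mainly by genes that were low in it. Requiring the same in the 4 state cells of EY1, which held 71589 UMIs in all, left 4 higher genes (0.0838% of 4771) and 46 lower ones (0.964%). Without the upper limits 0 genes were higher in both EY libraries and 33 were lower (0.669% of 4934). The 4 cells of EY1 also stood apart in their keratins, with Krt8 at 1313 CPM, so EY1 without upper limits (66 cells) is given beside them.

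Interferon-stimulated genes, which antiviral interferon signals switch on, were low in state cells. Of the 14 list members measured, 13 were at least 2-fold lower in EY2 state cells, with a median log2 ratio of -2.06 beside 0.07 over all genes. Ifi27l2a stood at 104 CPM in state cells and 710 in other cells, Isg15, a ubiquitin-like protein, at 160 and 757, Rsad2 at 12.8 and 82.7, Ifit1 at 10.7 and 60.2, and Irf7, a transcription factor of the response, at 12.0 and 60.9. In EY1 without upper limits 6 of 13 members were 2-fold lower, against 1.67% of all genes (median -0.96), with Ifi27l2a at 265 against 988 CPM and Isg15 at 252 against 492. In E1 4 of 17 were, against 3.32% of all genes (median -0.54), and Ifi27l2a there stood at 1779 CPM in state cells and 2374 in the others. The list was thus low in the state in the 3 libraries, to different extents.

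The level of these genes followed the number of state genes a cell held. Summed over the list, EY2 cells with fewer than 3 squamous genes and 0, 1, 2, 3, 4 and 5 to 7 of the state genes stood at 3900, 2979, 1483, 803, 467 and 289 CPM. Ifi27l2a alone ran from 1416 to 43.2 CPM over the same groups, and Irf7 from 91.3 to 4.81. Within tertiles of UMIs per cell, 14 of 15, 14 of 15 and 12 of 14 measured members were at least 2-fold lower in state cells, with medians of -2.07, -2.06 and -1.50. The list was thus lower in state cells of shallow, middle and high depth.

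Not every interferon-linked gene was low. Cxcl9, a T cell attractant induced by interferon gamma and named here after its values were seen, stood at 301 CPM in EY2 state cells and 117 in other cells, and at 312 and 231 in EY1 without upper limits. Gbp2, a guanylate-binding protein also chosen after its values were seen, stood at 87.6 and 43.7 CPM in EY2. In E1 both were lower in state cells, at 9.64 and 54.9 CPM for Cxcl9 and 13.1 and 55.7 for Gbp2.

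Fabp5, a fatty acid-binding protein that can also carry retinoic acid, was an abundant gene that was higher in the state. It reached 9454 CPM in EY2 state cells and 5029 in other gated cells. Fabp5 ran from 2376 CPM in EY2 cells with 0 state genes to 5106 at 2 genes and 9297 at 3, with little change beyond. The pattern did not hold in every library: without upper limits Fabp5 stood at 3727 and 3576 CPM in EY1 state and other cells, whereas in E1 Fabp5 stood at 15502 and 3620. The retinoid genes Aldh1a3 and Rdh10, a retinal and a retinol dehydrogenase, were low in both kinds of cells, with Aldh1a3 at 7.80 and 7.85 CPM and Rdh10 at 2.73 and 4.79 in EY2.

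**Figure D3:**
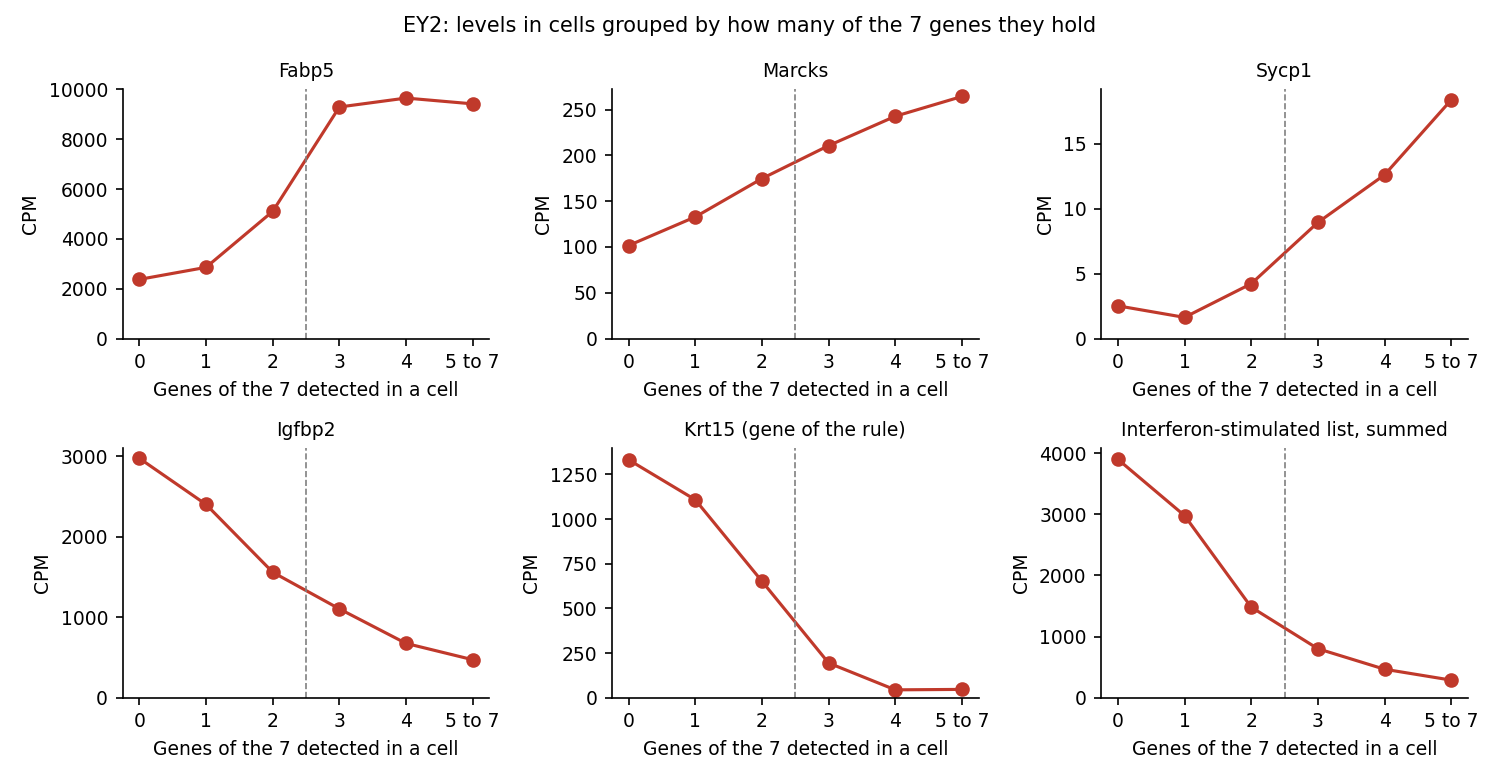
Levels in CPM of 5 genes and of the summed interferon-stimulated list in EY2 gated cells with fewer than 3 squamous genes, grouped by how many of the 7 genes were detected. The dashed line is the threshold of the rule. Fabp5, Marcks and Sycp1 are higher in cells with 5 to 7 genes than in cells with 0, and Igfbp2, Krt15 and the interferon list are lower.

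By the naming rule, 15 genes led the higher side among those with 50 CPM in both EY libraries and the same direction in EY1, EY2 and E1. In the 4 state cells of EY1 these 15 had 4 (Il13ra1) to 54 (Tpm2) UMIs each, so the EY1 side of the rule rests on few molecules. The 15 are given here with their EY2 levels. They included the actin regulators Cotl1 (79.5 and 39.4 CPM in EY2), Fscn1 (76.6 and 39.8), Actn1 (172 and 123) and Tpm2 (505 and 366), and the actin-linked kinase C substrate Marcks (236 and 151). Mpp1, a membrane scaffold, stood at 173 and 98.1 CPM, and Stom, a membrane protein, at 75.7 and 40.4. Cdk6, a cyclin D kinase, stood at 121 and 76.3 CPM, Rrm2, a ribonucleotide reductase subunit, at 183 and 133, and Samhd1, which breaks down deoxynucleotides, at 149 and 85.8. The rest were Il13ra1, Mgst1, Alad, Chordc1 and Cmtm7. The log2 ratios of the 15 in EY2 ran from 0.46 to 0.99, so that none reached 2-fold there, and in EY1 without upper limits they ran from 0.01 to 1.29.

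The 10 genes named for low levels had 0 (Sprr1a, Crct1) to 13 (Ifi27l2a) UMIs each in the 4 state cells of EY1. Of these genes, 4 were nearer the level of other EY2 cells once squamous cells were left out of the comparison, and Hopx less so. Sprr1a, a cornified envelope precursor, stood at 8.03 CPM in EY2 state cells and 71.4 in other cells, Crct1, another cornified envelope gene, at 173 and 733, Lgalsl, a galectin-like protein, at 46.9 and 129, and Ndrg1, a stress-responsive gene, at 76.7 and 192. These ratios are tied to the rule, which kept cells with late squamous genes out of the state. Against other EY2 cells that also had fewer than 3 squamous genes, the log2 ratio was 0.12 for Crct1, -0.61 for Sprr1a, -0.33 for Lgalsl and -0.37 for Ndrg1. For Ifi27l2a it was -3.03 and for Igfbp2 -1.56 in the same comparison. For Hopx it went from -1.32 against all other gated cells to -0.86.

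Igfbp2, an insulin-like growth factor-binding protein, was one of the most abundant genes that differed. It stood at 784 CPM in EY2 state cells and 2030 in other cells, at 839 and 1232 in EY1 without upper limits, and at 850 and 1483 in E1. Apoe, a lipoprotein component, stood at 44.7 and 146 CPM in EY2, 40.4 and 133 in EY1 without upper limits, and 150 and 406 in E1. Apoe stood at 29.3 CPM in the EY2 cells with 3 or more squamous genes, below the state. Against all other gated cells both were lower in state cells in the 3 libraries, as were Hopx, a homeodomain protein (45.1 and 114 CPM in EY2), and Xaf1, an interferon-induced gene (19.3 and 56.5). Krt15, a keratin of basal progenitors and one of the genes of the gate, stood at 103 CPM in EY2 state cells and 789 in the others. Over all gated cells Krt15 stood at 552 CPM in EY2, 2181 in EY1 and 3074 to 4701 in the other 6 libraries.

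**Figure D4:**
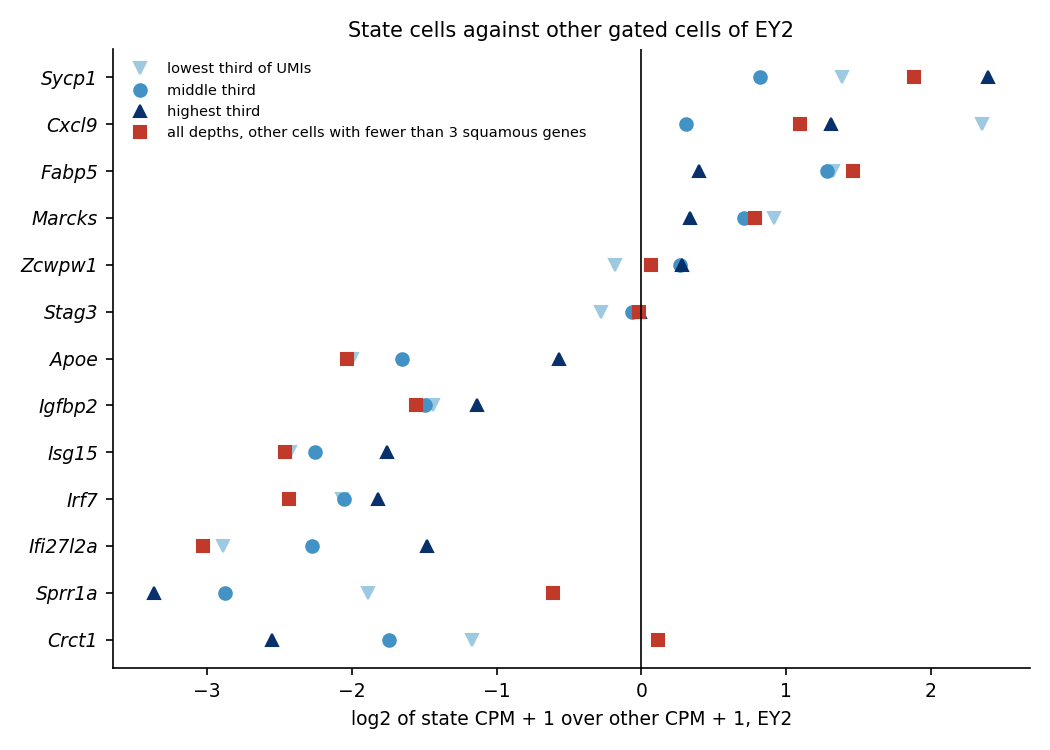
Log2 ratio of state to other gated cells of EY2 for 13 genes, within tertiles of UMIs per cell and, as red squares, against other cells with fewer than 3 squamous genes. The interferon genes and Igfbp2 lie below 0 in every comparison, while Crct1 moves from -2.55 in the deepest cells to 0.12 once squamous cells are left out of the comparison.

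Genes of meiosis separated into those that marked E6-E7 and one, Sycp1, that was higher in state cells within EY only. Zcwpw1, a histone reader of meiotic prophase, ran between 32.5 and 36.7 CPM in EY2 cells whatever the number of state genes, and Stag3, a meiotic cohesin subunit, between 14.0 and 17.5. Sycp1, a protein of the synaptonemal complex, went from 2.52 CPM at 0 genes and 1.63 at 1 to 8.94 at 3 genes and 18.4 at 5 to 7. It stood at 12.8 and 2.69 CPM in EY2 state and other cells, at 37.5 and 11.7 in EY1 without upper limits, and at 0.877 and 0.463 in E1. Sycp1 was thus low in E1 inside and outside the state. Without upper limits it stood at 1.62 and 0.649 CPM in Y state cells and at 0 in those of N2. Of the 30 germline genes outside the rule only 2 reached 20 CPM in EY2, and Sycp1 stayed below that level there.

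The proliferation lists G1/S and G2/M differed in their levels in EY2, while the shares of thinned cells there were higher in the state for both. All 21 members of the G1/S list, genes of DNA replication onset, were measured in EY2. Of these, 19 were higher in state cells by some amount, beside 3276 of 5133 over all genes. By 2-fold 0 were higher (median 0.27 beside 0.07 over all genes). After thinning to 2000 UMIs, 83.0% of EY2 state cells and 71.0% of other gated cells held at least 2 G1/S genes, and 86.3% and 54.5% did in E1. For the G2/M list, genes of mitosis, 11 of 20 were higher in EY2 state cells by some amount (median 0.08), and the summed level was 1913 CPM in state cells and 1948 in other cells. In E1 6 of 20 were higher (median -0.14), beside 2814 of 5548 over all genes. The G2/M counts were thus no larger a part than over all genes in EY2 and E1. In EY1 without upper limits the G2/M count was larger, with 18 of 20 higher (median 0.29). Over all genes there 3171 of 5400 were higher (median 0.06). The shares of thinned cells with at least 2 G2/M genes were 79.1% and 66.8% in EY2 and 33.3% and 29.8% in E1. Without thinning, 99.3% of EY2 state cells held 2 G2/M genes against 93.0% of others. Free RNA can add to such shares, which was not tested.

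Counts for the other lists stand beside 0.195% of all genes 2-fold higher and 1.44% 2-fold lower in EY2, so a count of 0 in a short list shows little. In EY2, of the YAP target genes 15 were measured, 0 were 2-fold higher and 1 was 2-fold lower, and their summed level was 923 to 989 CPM across cells with 0 to 7 state genes. Of 20 hypoxia and glycolysis genes 0 were 2-fold higher and 2 lower, of 10 partial EMT (epithelial-mesenchymal transition) genes 0 and 0, of 9 p53 targets 0 and 0, and of 15 ATF4 and mTORC1 genes 0 and 0. Of 12 basal progenitor genes 1 was 2-fold lower. Of 14 squamous genes 7 were lower, a number tied to the rule as above, and of 9 granulocyte attractants 3 were lower (summed level 567 and 1101 CPM). The state cells of E1 went the other way for both lists, with 10 of 18 squamous genes higher and 1 lower, and 4 of 6 attractants higher and 0 lower, against 2.31% and 3.32% of all genes. In E1 4 of 12 YAP targets and 8 of 15 basal progenitor genes were also lower, and in EY1 without upper limits 6 of 19 hypoxia genes were. EGF receptor ligands and receptors, the IL-20 group and the intermediate filament genes other than Nes had 0 of 6, 0 of 2 and 0 of 2 in either direction. Of the families of the state genes, 0 of 3 measured N-acetylaspartate genes were 2-fold apart, and 0 of 13 CAP superfamily and 0 of 7 LGI and ADAM22 genes reached 20 CPM.

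Markers of cell types were read in the state to check its label. Of the 10 keratinocyte markers 5 are keratins of the gate, and the other 5 summed to 2230 CPM in EY2 state cells and 2192 in other gated cells, with 0 of them at 0. The 6 immune markers summed to 171 and 483 CPM, of which S100a8, also made by keratinocytes, gave 168, and Ptprc was 0 by the rule. Fibroblast markers summed to 1.72 and 42.4 CPM with Lum and Pdgfra at 0, endothelial and mural markers to 29.0 and 19.8 with Acta2 giving 26.8, and Schwann and neural markers to 0.702 and 0.248 with S100b, Ncam1 and Gfap at 0. Nes, a marker of neural cells, was thus present in these cells without the 3 neural markers named. Taste and Merkel markers summed to 80.3 and 132 CPM, gland markers to 4.52 and 17.2, melanocyte markers to 0.312 and 0.537, and muscle markers to 0.234 and 0.372.

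To read the same genes outside the state, gated cells with fewer than 2 of the 7 genes were taken. Their UMIs were summed per library and compared by edgeR's quasi-likelihood test over 13121 genes with Benjamini-Hochberg adjustment. The cut used the same 7 genes as the rule, and kept 964 of 2027 gated cells in EY2 and 3403 of 3447 in N1. Against N, EY cells had 954 genes higher (7.27%) and 929 lower (7.08%). Of the 25 genes named for the state, 10 were higher in EY and 1 lower. Among those high in the state, Actn1 rose by a log2 fold change of 2.07 ± 0.21 (SE), Samhd1 by 2.05, Alad by 1.70 and Cmtm7 by 1.58 (adjusted p = 0.00626, 0.0116, 0.0344 and 0.0104).

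The interferon genes were higher in EY than in N among these cells outside the state. Among EY2 cells with fewer than 3 squamous genes, the summed list was highest with 0 or 1 of the 7 genes, at 3900 and 2979 CPM. The cut thus kept the EY2 cells high in the list, and its part in the rise was not tested. Against N, 17 of 18 list members were called higher and 0 lower, with a median of 2.68 beside -0.06 over all genes. Isg15 stood at 68.1 and 46.0 CPM in N, 677 and 461 in E, 131 and 283 in Y, and 525 and 1060 in EY (log2 fold change 3.79 ± 0.50, SE, adjusted p = 0.009 by edgeR). All 4 libraries with E6-E7 lay above the rest, and N lay lowest. Irf7 rose by 2.75 and Xaf1 by 2.42 (adjusted p = 0.0086 and 0.00626). The state cells of EY2, at 160 CPM of Isg15, thus stood between the N and the EY cells outside the state.

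Against Y, the same cells had 21 genes higher (0.16%) and 13 lower (0.0991%) by edgeR, with 2636 at an unadjusted p under 0.05, and 0 of the 25 named genes was called. Those called higher included Stag3 (log2 fold change 6.53) and Zcwpw1 (4.71), both with adjusted p = 0.0367, and the interferon genes Oasl2 (1.71) and Oas1a (2.02), both with adjusted p = 0.0496. Zcwpw1 stood at 1.06 and 1.15 CPM in Y, 22.5 and 34.3 in EY, 41.6 and 19.4 in E, and 1.61 and 1.37 in N. Against E there were 801 genes higher (6.1%) and 813 lower (6.2%). The calls depended on single libraries. Without EY2 there were 4 against N, 0 against Y (1516 at an unadjusted p under 0.05) and 0 against E (2581). The count against N was 17 without N1 and 201 without N2, and that against E was 69 without E1 and 2 without E2. Against Y it was 300 without EY1 and 0 to 5 without any other library.

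Whether cells picked by the same rule differ by genotype could not be tested within the limits on genes and UMIs, where only E1 and EY2 had 10 state cells. Without the upper limits 7 libraries did, N2 among them as the only N library and part of no contrast, and edgeR was fitted to their summed state cells over 10561 genes, a comparison chosen after the data were seen, with CPM scaled by TMM. EY state cells differed from Y state cells in 4 called genes, 3 higher (0.0284%) and 1 lower (0.00947%), with 607 at an unadjusted p under 0.05. Zcwpw1 stood at 2.43 and 1.95 CPM in Y and 28.3 and 33.6 in EY (log2 fold change 3.75 ± 0.28, SE, adjusted p = 0.00759). Stag3 stood at 0.202 and 0 CPM in Y and 12.8 and 15.2 in EY (adjusted p = 0.0245). Amn, a partner of the cobalamin receptor, stood at 1.82 and 2.60 in Y and 17.1 and 18.9 in EY (adjusted p = 0.0452), and Sytl1, a vesicle protein, at 16.4 and 9.73 in Y and 1.73 and 1.73 in EY (adjusted p = 0.0333). Amn and Sytl1 were named after their values were seen. The calls depended on single libraries: of these 4 genes, 4 were still called without E1 or E2 (12 and 11 calls in all), 1 without EY1 (of 1), 1 without EY2 (of 6), 1 without Y2 (of 2) and 0 without Y1 (of 2). Zcwpw1 lost its call without either Y library, with log2 fold changes of 3.98 and 3.66. Xist, which marks female cells, stood at 302 CPM in Y2 and at 0 in EY1 and EY2, so sex differs between some of these libraries.

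EY state cells differed from E state cells in many more genes, 611 higher (5.79%) and 715 lower (6.77%). Among YAP targets 7 of 21 were higher and 0 lower. Ccn1, a matrix protein and direct YAP target, stood at 38.4 and 50.01 CPM in E and 164 and 169 in EY (log2 fold change 1.93 ± 0.21, SE, adjusted p = 0.0021). Amotl2 and Tead1 rose by 3.36 and 2.07 (adjusted p = 0.00261 and 0.0027), and Ccn2, a second matrix target, had 0 UMIs in both E libraries and 11 and 144 in EY, at least 2.66-fold higher against 3 UMIs per library. Hypoxia and glycolysis genes were higher in 9 of 23, among them Pgk1 (1.37), Eno1 (1.02) and Ldha (0.92), with adjusted p of 0.0128, 0.0191 and 0.0376.

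Of the largest rises by the naming rule, Cxcl3, a neutrophil attractant, had 0 UMIs in E and 542 and 598 in EY, at least 43.3-fold higher. Sycp1 stood at 0.380 and 0 CPM in E and 38.1 and 11.5 in EY (adjusted p = 0.0115). Crct1, a cornified envelope protein, stood at 2.66 and 8.09 in E and 195 and 161 in EY, and F2rl1, a receptor cleaved by trypsin-like proteases, at 5.32 and 8.83 in E and 65.5 and 88.3 in EY. Cldn7, Slc15a3, Slc2a3 and Orm1 completed the 8, with log2 fold changes of 5.17, 4.66, 4.40 and 3.50. In all 8 the EY libraries lay above both E libraries, as the rule required.

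The largest falls included genes of differentiating epithelium. Serpinb12, a serpin of stratified epithelium, stood at 316 and 317 CPM in E and 0.216 and 0.140 in EY (adjusted p = 2.17e-05), and was seen in 42 of 88 E1 and 15 of 28 E2 cells that met the rule. Tgm3, a late transglutaminase, stood at 249 and 272 CPM in E and 1.08 and 0.326 in EY, and Krt24, a keratin, at 56.2 and 66.2 in E with 1 UMI in all in EY. Acer1, a ceramidase of differentiating epidermis, had 63 and 48 UMIs in E and 0 in EY, at least 75.0-fold lower, and Sptssb, a subunit of sphingolipid synthesis, stood at 107 and 116 CPM in E with 2 UMIs in EY. In N1, 126 Serpinb12 UMIs were found in the 5 cells that met the rule (1059 CPM). The 4 EY and Y libraries thus stood at 0 to 0.216 CPM of Serpinb12, below E1, E2, N1 and N2 (54.0).

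Of the squamous list 10 of 21 members were lower in EY than in E state cells and 2 were higher, and of the interferon list 13 of 18 were lower. Krt4, a keratin of the upper oral layers, stood at 7773 and 9376 CPM in E and 726 and 967 in EY (log2 fold change -3.34, adjusted p = 0.000568). Ifi27l2a stood at 1551 and 2228 in E and 269 and 85.8 in EY (-3.42, adjusted p = 0.00619), and Usp18, which dampens interferon signalling, at 35.3 and 47.8 in E and 6.49 and 8.07 in EY (-2.46, adjusted p = 0.00188). Outside the state the interferon list had 0 of 18 called in either direction between EY and E, and the difference between the 2 comparisons was not tested. Marker genes of fibroblasts moved with this contrast, 3 of 4 being lower in EY: Dcn stood at 159 and 155 CPM in E and 0.649 and 0.840 in EY, and Col3a1 at 44.8 and 0.735 in E. Their part in the other differences was not tested, and Gsta1, a glutathione transferase, completed the 8 named falls.

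**Figure D5:**
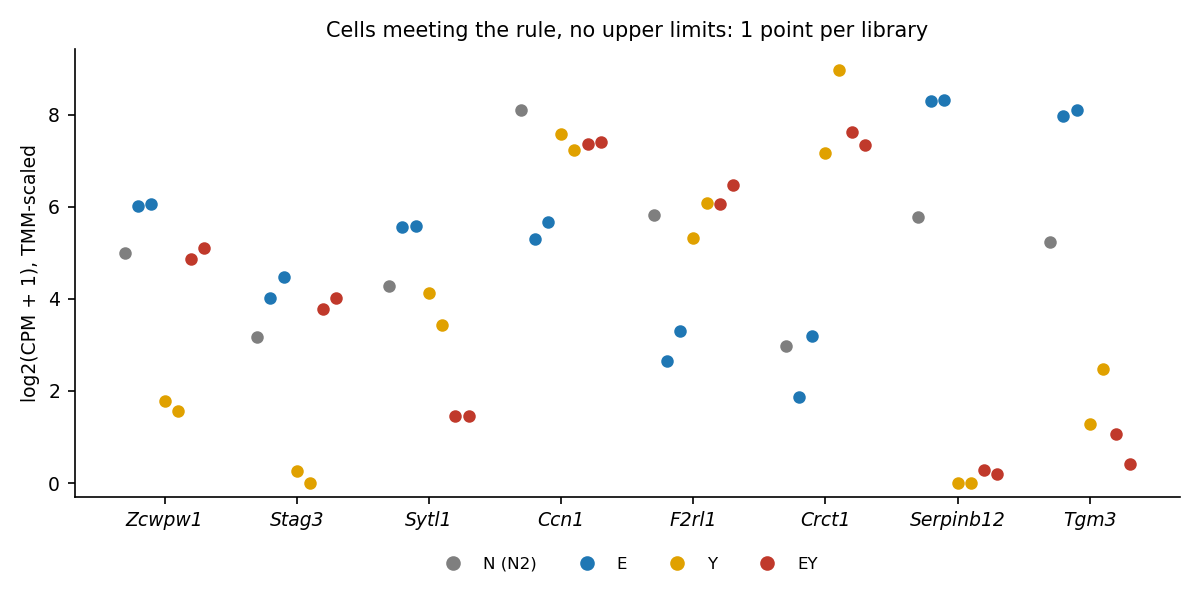
Level of 8 genes as log2(CPM + 1), scaled by TMM, in summed cells that met the rule without upper limits, 1 point per library for the 7 libraries with at least 10 such cells. EY and Y points overlap for Ccn1, F2rl1 and Crct1 and separate for Zcwpw1, Stag3 and Sytl1, and E points stand above both for Serpinb12 and Tgm3.

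The 25 genes named for the state were chosen from levels in EY1, EY2 and E1 with a minimum of 50 CPM, so counts of them are descriptions. Over all genes 5.79% were called higher and 6.77% lower in EY than in E state cells. Of the 25, 10 were called between EY and E state cells by edgeR, 7 higher and 3 lower in EY, and 0 between EY and Y. Those higher in EY included Actn1 (log2 fold change 1.40, adjusted p = 0.00591), Cdk6 (1.86, 0.00833) and Cmtm7 (1.69, 0.0171), and those lower were Ifi27l2a, Irf7 (-2.02, 0.0161) and Apoe (-1.87, 0.0246). Among genes not called, Fabp5 stood at 16064 and 11713 CPM in E state cells, 5083 and 6138 in Y and 3786 and 8943 in EY, with adjusted p by edgeR of 0.0710 for EY against E and 0.994 for EY against Y. Igfbp2 stood at 878 and 855 CPM in E, 764 and 1570 in Y and 853 and 875 in EY. Marcks stood at 202 and 172 CPM in E, 230 and 258 in Y and 234 and 261 in EY. None of the contrasts of Fabp5, Igfbp2 and Marcks passed the threshold, which does not show that the levels are equal.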

How the data were processed

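Single cells of mouse tongue epithelium were profiled in 8 libraries. The authors deposited raw UMI counts per gene and barcode, made with Cell Ranger 5.0.0 on mm10, for 32285 genes. The labels name the v2 kit chemistry, and the study's methods name a later kit. Groups were taken from the labels. The members, the 21 gene lists and 9 marker lists and the tests were chosen with earlier results of these data known. No clustering and no doublet caller was used. Ratios of state to other cells used CPM with 1 CPM added on the log2 scale. Named genes were the 15 highest and 10 lowest by the smaller log2 ratio of EY1 and EY2 among genes with 50 CPM in both and the same direction in every library with 10 state cells; the 8 largest called rises and falls within the state with a mean of 20 CPM and no overlap; members of the rule and of the lists. Counts summed per library were tested with edgeR 4.0.16 under R 4.3.3 (quasi-likelihood after TMM scaling and filterByExpr, a mean per group, adjusted p under 0.05), with DESeq2 1.42.0 as an alternative. Each SE was obtained from the fold change and the F statistic. p-values measure the spread between libraries, whose animals are named in the labels. The planned test within the state could not be made under the upper limits (only 2 libraries had 10 cells), and was made without them. The fits were tested on simulated data. Python 3.11.15 with scipy 1.17.1 was used. Positions came from GENCODE on GRCm38 (32158 of 32285 identifiers). Promoters of Pi15, Nat8l, Il24 and Crabp2 were not analysed here. 1 gene is not reported here.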

Additional observations from a re-analysis of the deposited data

Results flagged for a closer look

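Cells above the upper limits on genes and UMIs, which the comparisons under the limits do not use, also met the rule. They made up 19.9% of such keratin-positive cells in EY1 (62 of 311) and 59.8% in EY2 (260 of 435), against 0 of 74 in N1 (exact 95% upper bound 4.86%) and 3.68% in N2 (12 of 326). In E1 the share was 28.5% (37 of 130), above that of EY1, and in E2, Y1 and Y2 it was 4.43 to 13.0%. These cells were deeper, and the part of depth was not tested.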

How the results depend on the processing

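No paired analysis was made because the library titles share no animal number between groups and name no litter. The title of N2 holds more than 1 animal number. The EY mean share stayed above the other groups' means under every setting run, but EY1 alone did not stay above all other libraries. With a minimum of 200 genes per cell EY1 had 0.816% and E1 1.17%. With 4 of the 7 genes EY1 had 0 of 170 cells, while E1 had 0.123% and E2 0.181%. Requiring 2 genes gave means of 1.60% in N, 4.24% in E and 2.57% in Y; 4 genes gave 0.152% in E. Without upper limits, the means were 0.881% in N, 2.53% in E and 3.17% in Y; thinning to 4000 UMIs gave 0.0249% in E, and both together (added after seeing the data) 0.209% in N and 0.0543% in E. Of genes 2-fold higher and lower in both EY libraries (4 and 46), a minimum of 5 CPM gave 9 and 110 and one of 50 CPM 1 and 25; without the 10% deepest cells 2 were higher, and without upper limits (added) 0 were higher. With 1 EY library they ran from 10 to 836 and from 74 to 1360, the last of each from the 4 cells of EY1. Requiring 4 genes, or thinning, left no state cell in EY1 and was not run for them. Outside the state, calls with no filter were 3629 against N, 1512 against Y and 3204 against E, with none of the 7 genes 976, 9 and 723, and without upper limits 4613, 301 and 4016. Against Y, DESeq2 size factors gave 4 and the Wald test 539. Without 1 library calls ran from 4 (EY2) to 3088 against N (17 without N1, 201 without N2), 0 (without EY2 or Y2, with 1516 and 2228 at an unadjusted p under 0.05) to 300 against Y, and 0 to 2632 against E (0 without EY2 with 2581 at an unadjusted p under 0.05, 2 without E2, 69 without E1). Sprr1a against N reversed without upper limits (-0.066, from 0.88). Within the state, calls against Y were 23 by the Wald test, 215 with no filter, 7 with at least 20 cells and 1 to 12 without 1 library; against E 2440 with no filter, 437 with 4 genes (at least 5 cells per library) and 349 to 1044 without 1 library. The causes of these shifts were not tested. Of the reported gene values 320 settings kept direction and call, 85 lost the call and 1 reversed.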
